A study of Mus musculus with 3 samples.

Results

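The comparison described here sets mouse palatal medial edge epithelium after 24 h of contact and fusion in culture against the same epithelium before fusion and without culture (0 h). Both samples came from CF-1 embryos at stage ED13.5, a wild-type stock with no transgene or drug named in the labels, and the epithelium was released from the shelves with Dispase II. The 0 h sample is labelled unfused. The 24 h sample is labelled fused and in the course of transforming into mesenchyme. A fused sample at 12 h had an array too, and its values are given beside those of the other 2 arrays without a comparison of its own. Each time point had 1 array, with embryo numbers not given in the sources used here, and no ratio has a replicate error or a p-value. The unfused tissue was not cultured, so fusion and 24 h in culture cannot be told apart.

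Medial edge epithelium covers the tips of the palatal shelves. When opposing shelves meet, the epithelia adhere into a midline seam, periderm cells are shed, and the seam is then removed, by cell death, migration or change of its cells into mesenchyme, so that the palate becomes continuous. Transforming growth factor beta 3, made by the medial edge cells themselves, is the signal best known to be required for that removal, and embryos that lack it have cleft palate.

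Of 8251 genes represented by probe sets that name a single gene, 6400 had a ratio between the 24 h and 0 h arrays, and these are the genes described. The other 1851 lay on both arrays at or below the floor, a scaled signal of 13.53, the 40th percentile of the 3 arrays pooled. Among the 6400, 5218 were measured on both arrays, 513 were at the floor at 0 h and 669 at the floor at 24 h. A ratio with 1 array at the floor is a bound and is written as "at least" or, for a log2 ratio, as taken against the floor. Signals printed below 13.53 are below the floor and have no order among themselves. All signals were scaled to a common trimmed mean, and a gene with several probe sets is represented by the brightest. The rule used no ratio to choose genes.

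At 24 h, 2072 genes (32.4%) differed at least 2-fold from 0 h. Higher at 24 h were 918 genes (14.3%), 743 of them measured on both arrays and 175 bounds. Lower were 1154 genes (18%), 884 measured and 270 bounds. At least 4-fold, 259 genes were higher and 260 lower, and at least 16-fold, 15 were higher and 11 lower. The balance of directions depended on the scaling. Genes that were higher made up 44.3% of those that differed, but 8.22% with the values as deposited, 54.8% with medians centred and 50.5% with quantile normalization. Over all genes the log2 ratio had a median of -0.08, and of -0.99 with the values as deposited, so every direction given below is relative to the other genes of the array. In the plot of signals at 24 h against 0 h the bright genes were more often higher than lower. Of 116 genes with a mean signal of at least 1000, 36.2% were at least 2-fold higher and 11.2% lower, while of 2784 genes under 50, 10.8% were higher and 16.7% lower.

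**Figure D1:**
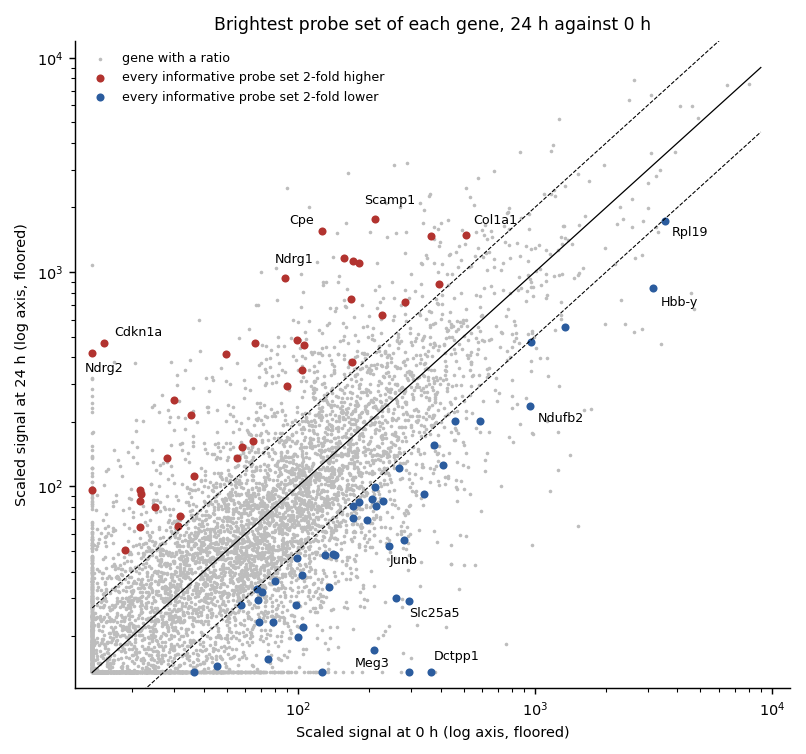
Scaled signal of each gene at 24 h (vertical axis) against 0 h (horizontal axis), both on log axes and with arbitrary signal units, with 1 point for each of 6400 genes, a solid line at equality and dashed lines at 2-fold. Genes whose separate probe sets were all at least 2-fold different in the same direction are marked, and among them Cdkn1a and Ndrg2 lie far above the 2-fold line and Meg3 far below it.

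Separate probe sets of 1 gene on the same arrays gave the only internal check of a ratio. A probe set was counted where it exceeded the floor on at least 1 of the 2 arrays, and 1133 genes had 2 or more such sets. Every set was at least 2-fold higher at 24 h in 37 genes (3.27%) and at least 2-fold lower in 46 (4.06%), here called concordant. In 61 genes (5.38%), 1 set was at least 2-fold higher and another at least 2-fold lower. The balance of the 2 directions turned with the scaling, to 51 concordant higher and 31 lower after centring on medians and to 51 and 36 after quantile normalization. In the scaling used here lower calls were repeated by other probe sets more often than higher calls. By the brightest set alone 230 of the 1133 genes were higher, and their 266 other sets had a median log2 ratio of 0.07, with 50 of them higher by 2-fold or more and 44 lower. The 188 genes called lower had 217 other sets with a median of -0.41, of which 63 were at least 2-fold lower and 17 higher. In the 715 genes called neither way, 73 of 838 other sets were higher and 166 lower. Other sets thus leaned lower also where the brightest set made no call. In both directions most other sets did not repeat a 2-fold ratio of the brightest set. That bears on every single-set gene named below, higher or lower.

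**Figure D2:**
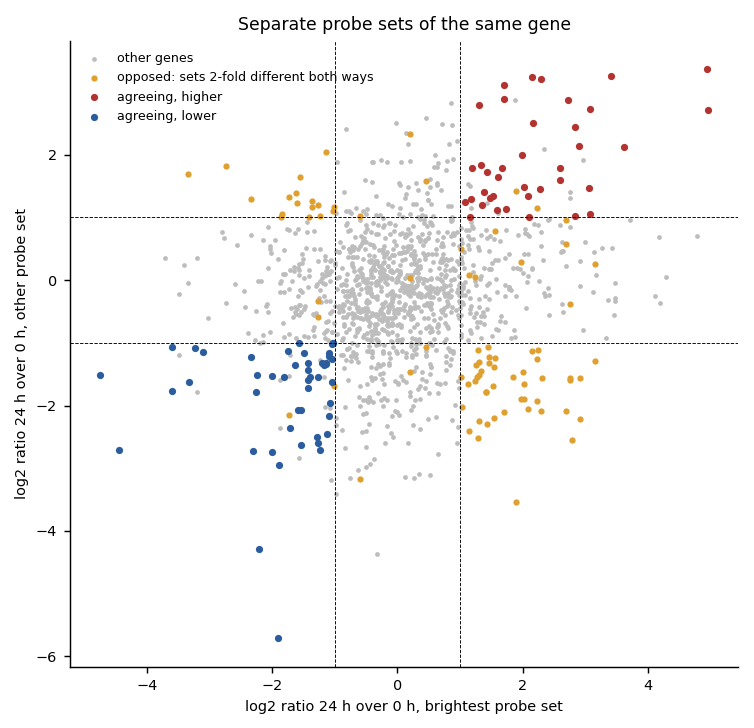
Log2 ratio of 24 h over 0 h for the other probe sets of a gene (vertical axis) against that of its brightest set (horizontal axis), for genes with 2 or more sets above the floor. The 37 concordant higher genes lie in the upper right and the 46 concordant lower genes in the lower left, while the other sets of the 230 genes called higher are centred near 0 (median 0.07).

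Concordance was more frequent among the larger ratios of the higher genes. Of genes 2 to 4-fold higher by the brightest set 11.9% were concordant, against 20.6% of those 4 to 8-fold higher and 29.2% of those at least 8-fold higher. On the lower side the shares were 23.8%, 18.8% and 46.2%, the last over 13 genes, with no steady order. The log2 ratio of a probe set varied about its gene's mean with an SD of 1.07 over 748 genes, a spread that also holds real differences between transcripts. The 3' to 5' signal ratio of the control probe sets moved with the comparison, at 0.828, 14.9 and 12.6 at 0, 12 and 24 h for Gapdh and 1.02, 11.9 and 2.97 for Actb, and its part in the ratios was not tested.

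The tissue label was checked against defining markers. Of 5 for surface epithelium, the basal keratins Krt5 and Krt14 were below the floor on all 3 arrays, and the other 3 were above it. The signal of Cdh1, the epithelial cadherin, was 112, 104 and 65.8 at 0, 12 and 24 h, that of Epcam, an epithelial adhesion molecule, 38.7, 265 and 77.1, and that of Trp63, the transcription factor of stratified epithelia, 75.9, 230 and 67.4. None of these 3 differed 2-fold between 0 and 24 h, though Epcam came close at 1.99-fold. All 4 markers of mesenchyme were above the floor at 0 h, with Twist1 at 479, Prrx2 at 299, Pdgfra at 454 and Prrx1 at 32.8. The unfused sample thus held transcripts of both tissues. At 24 h Twist1 was at 1327, Prrx2 at 341, Pdgfra at 331 and Prrx1 below the floor, so the mesenchymal markers did not move in 1 direction.

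Of the concordant genes with higher signal, Cdkn1a and Ndrg1 had the largest ratios when each gene is ranked by its smallest set. The signal of Cdkn1a, the p21 inhibitor of cyclin-dependent kinases, went from 15.1 to 72.6 and then 466 on the 0, 12 and 24 h arrays, a log2 ratio of 4.94 at 24 h, and its other probe set gave 3.36. Ndrg1, a hypoxia and stress-induced gene, had 88.4, 308 and 940, with log2 ratios of 3.41 and 3.25 in its 2 sets. Its relative Ndrg2 was below the floor at 0 h and reached 136 and 421, at least 31.1-fold higher at 24 h, and its other set gave 2.71. In all 3 genes the 24 h array was highest and the 12 h array lay between the others.

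Hypoxia-induced genes were higher at 24 h as a list, 13 of its 35 members being 2-fold or more higher and none lower. Their median log2 ratio was 0.88, or -0.12 with the values as deposited, against -0.08 and -0.99 over all genes. List medians given below as deposited are likewise to be read against -0.99. Of 8 members with several probe sets 3 were concordant, Ndrg1, P4ha2 and Ero1a. P4ha2, a prolyl hydroxylase of collagen, had signals of 98.8, 83.1 and 482, and log2 ratios of 2.29 and 3.20. It was raised at 24 h and not at 12 h in its brighter set, while the other set read 37.7, 117 and 347. Ero1a, which reoxidizes the disulphide-forming machinery of the endoplasmic reticulum, had 106, 423 and 456, with ratios of 2.10 and 1.002, already at its 24 h signal by 12 h. Over the list the log2 ratios ran from -0.55 to 4.16. The highest was that of Ddit4, a stress-induced inhibitor of mTOR signalling with 162, 609 and 2892 from a single set, and the transcription factor Bhlhe40, also with a single set, was below the floor at 0 h and at 92.6 at 24 h. Glycolytic enzymes, which share members with that list, had 5 of 16 higher and 1 lower. The exception was Hk1, a hexokinase, at 1729, 276 and 229, 7.54-fold lower, against 362, 2734 and 2303 for Pgk1.

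Inhibitors of the cell cycle and p53 targets had 9 of 29 members higher and 1 lower, with a median of 0.60 (-0.37 as deposited). Beside Cdkn1a, Rprm, a p53-induced mediator of arrest, was concordant at 31.0, 38.3 and 65.5, with ratios of 1.08 and 1.24. Gadd45b, a growth arrest and stress gene, had 59.2, 63.8 and 314, and its other set gave a log2 ratio of 0.96, just under 2-fold. Ccng2, a cyclin of resting cells, was 3.75-fold higher, and Cdkn2d, an inhibitor of Cdk4 and Cdk6, 4.92-fold. Each of these 2 had 1 informative set.

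Genes of DNA replication made up the most uniform list on the lower side. Of 45 members with a ratio, 27 were at least 2-fold lower and none higher, with a median of -1.34, which lay between -2.22 and -1.17 under the other scalings. Of 9 members with several sets 3 were concordant. Dctpp1, which degrades deoxycytidine triphosphate, had a signal of 363 at 0 h and was below the floor later, at least 26.9-fold lower, with -1.51 in its other set. Tk1, thymidine kinase, had 196, 44.7 and 70.0 and a ratio of -1.49, with -1.16 against the floor in its dimmer set. Pola2, a subunit of the primase complex, had 67.6, 13.1 and 29.4 and a ratio of -1.20, with -1.32 against the floor in its dimmer set. Tk1 and Pola2 were at their lowest at 12 h. The helicase subunit Mcm5 had another set that did not reach 2-fold, with a ratio of -3.03 in the brighter and -0.60 against the floor in the dimmer.

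Mitotic genes did not follow the replication genes in full. Of 43 members 12 were at least 2-fold lower (27.9%, against 18% of all genes) and 5 higher (11.6%, against 14.3%). Their median was -0.48, and none of the 5 with several sets was concordant. Cks1b, a cofactor of cyclin-dependent kinases, went from 502 to 217 and 97.1, while Nek2, a centrosomal kinase, went from 51.6 to 202 and 300. Plk4, the kinase that starts centriole duplication, had 76.5, 402 and 359. Nusap1, a spindle protein not in that list, was concordant and lower, at 229, 266 and 85.5 with ratios of -1.42 and -1.44.

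Promoters are shown for 2 lists, replication (60% lower and none higher) and the antiviral genes below (80.6% higher and none lower). Each is a window of 300 bases around the RefSeq start, most of them upstream of it (build GRCm38.p6), 5' to 3' on the gene's strand, and the capitals mark every match to the motif searched on either strand. E2F factors, which drive replication genes at the start of S phase, bind sites such as TTTGGCGC and TTTCCCGC. The form TTTGGCGC stood in 6 of 53 replication promoters (11.3%). It stood in 0.514% of all 32851 promoters and in 0.981% of the 6626 promoters of genes with a ratio. The form TTTCCCGC stood in 5 of 53 (9.43%), in 1.07% of all and in 2.01% of those of genes with a ratio. The core of the interferon-stimulated response element is TTTC followed by any 2 bases and another TTTC. The antiviral genes carry it in 13 of 33 promoters (39.4%), against 3.44% of all and 2.82% of those of genes with a ratio. Mcm5 lies on chromosome 8 on the plus strand (chr8:75109259-75109558) and Mcm7 on chromosome 5 on the minus strand (chr5:138171834-138172133). Gbp3 lies on chromosome 3 on the plus strand (chr3:142559794-142560093) and Isg15 on chromosome 4 on the minus strand (chr4:156200769-156201068). These shares count all list members with a ratio, whether or not they differed 2-fold. Of the 2-fold lower replication genes 3 of 24 carried TTTGGCGC and 3 of 24 TTTCCCGC, against 6 and 5 of all 41 members with a promoter. Of the 2-fold higher antiviral genes 10 of 20 carried the interferon motif, against 12 of all 25. The lists hold genes known for such control, so the shares are no result of the arrays. A match describes the letters of the window and is no measurement of binding.
Mcm5: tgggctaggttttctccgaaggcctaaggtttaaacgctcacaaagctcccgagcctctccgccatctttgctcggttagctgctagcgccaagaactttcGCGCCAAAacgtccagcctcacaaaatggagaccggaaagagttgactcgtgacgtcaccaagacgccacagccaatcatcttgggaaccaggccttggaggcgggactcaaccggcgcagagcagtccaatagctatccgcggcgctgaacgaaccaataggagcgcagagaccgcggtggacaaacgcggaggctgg
Mcm7: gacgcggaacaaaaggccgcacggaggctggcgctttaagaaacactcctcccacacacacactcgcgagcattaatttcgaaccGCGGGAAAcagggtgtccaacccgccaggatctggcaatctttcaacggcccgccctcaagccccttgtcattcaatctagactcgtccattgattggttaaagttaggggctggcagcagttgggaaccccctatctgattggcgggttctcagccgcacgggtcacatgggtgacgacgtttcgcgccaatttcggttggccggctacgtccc
Gbp3: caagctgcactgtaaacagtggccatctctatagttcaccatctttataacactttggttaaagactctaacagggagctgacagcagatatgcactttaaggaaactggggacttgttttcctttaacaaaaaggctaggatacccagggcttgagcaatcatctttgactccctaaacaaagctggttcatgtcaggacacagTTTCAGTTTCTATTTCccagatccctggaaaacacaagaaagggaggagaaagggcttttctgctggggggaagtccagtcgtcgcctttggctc
Isg15: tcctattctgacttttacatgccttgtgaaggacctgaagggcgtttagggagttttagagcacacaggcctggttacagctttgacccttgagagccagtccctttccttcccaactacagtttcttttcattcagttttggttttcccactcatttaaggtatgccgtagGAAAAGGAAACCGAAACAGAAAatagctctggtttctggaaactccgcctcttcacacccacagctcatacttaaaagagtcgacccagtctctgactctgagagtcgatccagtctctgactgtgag
In Mcm5 and Mcm7, 1 match each lay 141 and 157 bases before the start. In Gbp3 the first of 2 overlapping matches ended 35 bases before it. In Isg15 3 matches merged into 1 stretch, and the first of them ended 68 bases before the start. All 3 matches in Isg15 were on the opposite strand, as were those in the E2F promoters shown.

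Antiviral interferon-stimulated genes were the list with the highest median of those examined. Among 31 members with a ratio, 25 were higher by the rule and none lower. Their median log2 ratio of 2.01 stayed above 0 in every scaling tried (1.60 to 2.16). Its size depended on the floor, at 3.14 with the floor at the 20th percentile and 1.05 at the 60th. At the 60th, 14 of 28 members were higher and none lower, and antigen presentation genes had the larger median (1.63). Of 4 members with several sets 2 were concordant. Iigp1, an immunity-related GTPase, was below the floor at 0 h in both of its sets and at 96.4 and 73.3 at 24 h, at least 7.13-fold higher by the brighter. Irf7, the transcription factor that amplifies the interferon response, had 21.6, 39.7 and 85.8 with a ratio of 1.99 in both sets, in the dimmer against the floor. Of the 10 called members with a motif match, Gbp3, an interferon-induced GTPase, was below the floor at 0 h and at 707 and 1072 later. Isg15, the ubiquitin-like modifier, had 16.7, 144 and 379. Both have a single set.

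Antigen presentation genes had 11 of 14 members higher and 1 lower, with a median of 1.70 (0.74 as deposited). H2-D1, a class I molecule, was the only one of 156 genes with 3 or more informative sets to be concordant and higher. Its sets read 90.2, 59.4 and 293, then 36.4, 76.6 and 271, then below the floor at 0 h, 72.1 and 117, with ratios of 1.70, 2.89 and, against the floor, 3.11. Class I genes are near copies of each other, so sets named for H2-D1 and H2-K1 may share signal. H2-K1 itself differed between sets, with log2 ratios of 2.69 and 0.23. B2m, the light chain of class I molecules, had 102, 682 and 482, and Psmb8, a subunit of the immunoproteasome, was below the floor at 0 h and at 222 at 24 h.

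Chemokines, cytokines and acute phase genes had 21 of 38 members higher and 2 lower, with a median of 1.07 (0.09 as deposited). None of 5 members with several sets was concordant. Cxcl1, a neutrophil chemokine, had 29.1, 334 and 382, and a second set with a ratio of 0.96. Saa3, an acute phase protein, Ccl7, a monocyte chemokine, and Cxcl10, an interferon-induced chemokine, were all below the floor at 0 h. At 24 h they stood at 316, 286 and 89.5. Leukocyte markers were measured beside these genes, and 7 of 26 with a ratio were higher (26.9%, against 14.3% of all genes) and 1 lower. The largest ratios were those of Mpeg1, below the floor at 0 h and at 105 at 24 h, and Ctss, at 42.0, 508 and 278. Laptm5 had 63.0, 130 and 280, with a ratio of 0.19 in its other set. Cd14 had 74.2, 73.1 and 209, and Msr1 was below the floor at 0 h and at 60.1 at 24 h. The summed signal of all 50 leukocyte markers on the array was 1066, 1536 and 1799 at 0, 12 and 24 h. Of 5 defining macrophage markers, Ptprc and Adgre1 were below the floor on every array, and Cd68 (34.7, 16.5 and 48.3), Csf1r (35.5, 25.5 and 28.9) and Tyrobp (34.3, 24.3 and 29.7) differed by under 2-fold between 0 and 24 h. The part of leukocytes in the inflammatory genes was not tested beyond these values. In bulk RNA, fewer cells of a type and less RNA per cell cannot be told apart.

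**Figure D3:**
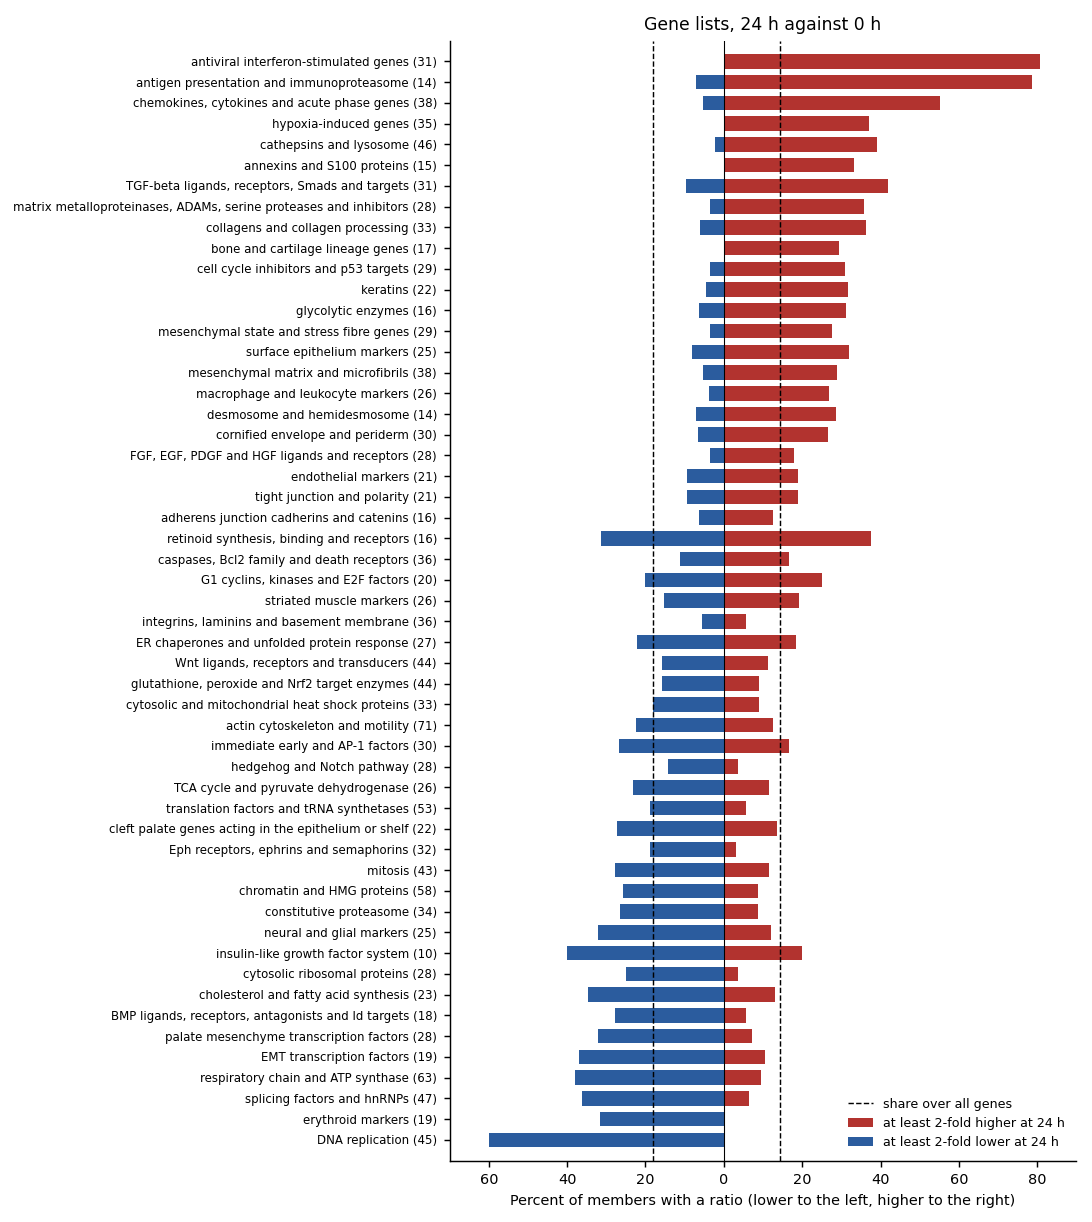
Percent of the members of each gene list that were at least 2-fold higher (bars to the right) or lower (bars to the left) at 24 h, for lists with at least 10 members that have a ratio, with dashed lines at the shares over all genes (14.3% and 18%). Antiviral genes lie at the top, with 80.6% higher and none lower, and DNA replication genes at the bottom, with 60% lower and none higher.

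The TGF-beta pathway, on which seam removal depends, had 13 of 31 members higher and 3 lower. Its median was 0.55, or -0.19 as deposited, against -0.08 and -0.99 over all genes. Among the ligands, Tgfb3 had 120, 254 and 321 from 1 informative probe set, a 2.67-fold higher signal at 24 h. Inhba, the activin A subunit, had 24.7, 38.6 and 86.2. Among the Smads, Smad1 was concordant, at 168, 2063 and 745 in the brighter set and 84.4, 1503 and 791 in the other, with ratios of 2.15 and 3.23. Smad1 was highest at 12 h in both sets and is the transducer of BMP more than of TGF-beta signals. Smad4, the shared partner of both branches, had 72.8, 722 and 353, and Smad7, a feedback inhibitor, 44.7, 40.4 and 158. Among the targets, Klf10, an early response gene of TGF-beta, was concordant at 49.8, 353 and 416, with ratios of 3.06 and 1.46. The receptor Tgfbr1 was at 16.8 at 0 h and below the floor afterwards, within 2-fold of the floor. Ligand, transducer and target members were thus all among the higher genes.

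BMP genes were not higher as a list. Of 18 members 5 were lower (27.8%, against 18% of all genes) and 1 higher. Their median was -0.24, against -0.08 over all genes. With the values as deposited the list lay 0.08 above the median of all genes. Id1 and Id3, targets of BMP signals that block basic helix-loop-helix factors, had 472, 38.3 and 177, and 302, 54.8 and 94.9. Msx1, a homeobox factor of the shelf, had 290, 83.9 and 64.3, and the ligand Bmp7 69.3 at 0 h and less than the floor later. The sets of Bmp4 differed, with log2 ratios of -0.41 and 1.87. Id1 and Id3 were at their lowest at 12 h, when Smad1 was at its highest.

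The factors best known for driving an epithelial to mesenchymal change were mostly not higher. Of 19 such transcription factors, 2 were at least 2-fold higher and 7 lower, and the median was 0.05 (-0.95 as deposited). Zeb1 had 80.4, 292 and 307, with 0.73 against the floor in its other set, and Twist1 479, 1444 and 1327. Snai1, the repressor of the epithelial cadherin, had 51.1 at 0 h, below the floor at 12 h and 13.8 at 24 h. Snai2 was at 315, 472 and 492, a difference of 1.56-fold. Hmga2, a chromatin factor upstream of these genes, was at 169, 21.3 and below the floor, at least 12.5-fold lower. Sox4 had 496, 28.1 and 160, and its other set gave -0.52. None of the 5 factors with several sets was concordant.

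Markers of the mesenchymal state and of stress fibres had 8 of 29 members higher and 1 lower, with a median of 0.32 (-0.67 as deposited), and 2 of them were concordant. Ncam1, a neural cell adhesion molecule also made by mesenchyme, had 171, 579 and 1129 in its brighter set and ratios of 2.72 and 2.88. Col1a1, the main fibrillar collagen of connective tissue, had 514, 550 and 1486, with ratios of 1.53 and 1.33, and its other set read 391, 1582 and 984. The cadherin Cdh2, which mesenchymal cells often carry in place of Cdh1, had 76.1, 52.8 and 20.2, and thus a ratio opposite to those of Ncam1 and Col1a1.

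Matrix genes were higher more often than lower but their probe sets were often at odds. Collagens and their processing enzymes had 12 of 33 members higher and 2 lower, with a median of 0.57 (-0.44 as deposited), and 2 of the 12 members with several sets were concordant, Col1a1 and P4ha2. Col1a2, the partner chain of Col1a1, was 11.1-fold higher at 289, 1711 and 3224, yet its other set read 228, 98.9 and 180. Lox, which crosslinks collagen, was at 73.1, 379 and 392 in 1 set and 21.4, 19.96 and 18.2 in the other. Sparc, a collagen-binding matrix protein with a single set, had 147, 345 and 901. Of 38 genes of mesenchymal matrix 11 were higher and 2 lower, with a median of 0.53 (-0.27 as deposited), among them the small proteoglycans Bgn, with 287, 271 and 1540 and a second set at a ratio of 0.97, and Dcn, with 144, 385 and 660. The microfibril genes Fbn2 and Mfap2 had the opposite ratio, at 92.4, 8.07 and 19.5, and 775, 20.5 and 170.

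Matrix proteases and inhibitors had 10 of 28 members higher and 1 lower, with a median of 0.22 (-0.64 as deposited). The metalloproteinases Mmp9, Mmp13, Mmp12 and Mmp2 were all below the floor at 0 h, and at 24 h they stood at 67.5, 53.3, 46.6 and 32.9. Timp1, an inhibitor of such enzymes, had 116, 156 and 284. Lysosomal genes had 18 of 46 members higher and 1 lower, with a median of 0.51 (-0.52 as deposited). Psap, the precursor of the saposins that help break down sphingolipids, was concordant at 284, 188 and 722, with ratios of 1.35 and 1.20, and low at 12 h. Grn, the lysosomal protein progranulin, which is outside that list, was concordant too, at 64.5, 43.6 and 164, with ratios of 1.34 and 1.83. Ctss, Ctsk and Ctsl, cysteine proteases with a single set each, were 6.61, 5.34 and 5.15-fold higher. Atp6v1a, a proton pump subunit, was 6.77-fold higher in its brightest set and had ratios of -0.38 and -1.57 in the others.

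Palate mesenchyme transcription factors were lower more often than higher at 24 h, with 9 of 28 at least 2-fold lower, 2 higher and a median of -0.66 (-1.35 to -0.53 over the scalings). Besides Msx1, the LIM homeobox factors Lhx6 and Lhx8 had 213, 49.7 and 49.1, and 371, 379 and 115. The forkhead factor Foxf2 had 74.7, 50.6 and 18.3. Tbx2, a T-box repressor, had 147, 7.96 and 22.1, with -0.37 in its other set. The summed signal of the 33 factors on the array was 3986, 3779 and 3729, a sum that holds Twist1, at 479, 1444 and 1327, the member with the highest ratio. Ebf3, a helix-loop-helix factor outside this list, was concordant at 74.5, 19.1 and 15.6, with ratios of -2.26 and -1.78.

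Epithelial lists had more members higher than lower, though single genes went both ways. Keratins had 7 of 22 members higher and 1 lower, with a median of 0.63 (-0.40 as deposited). Krt6a, a keratin of activated and wounded epithelium, was concordant at 157, 532 and 1163, with ratios of 2.89 and 2.13. Krt8, a keratin of simple epithelia, had 102, 101 and 441, Krt10, of differentiating layers, 28.3, 262 and 108, and Krt4, of internal stratified epithelia, 56.6, 88.7 and 185. Desmosomal genes had 4 of 14 members higher and 1 lower, with a median of 0.44 (-0.45 as deposited). Pkp1, a plakophilin, was concordant, at 29.9, 242 and 251 in the brighter set and 18.9, 21.4 and 39.3 in the other, and Dsp, the desmosomal plaque protein, had 156, 739 and 411. Cornified envelope and periderm genes had 8 of 30 members higher and 2 lower, with a median of 0.50 (-0.53 as deposited). Lor, a cornified envelope protein, had 29.3, 52.2 and 113, while Sfn, the stratifin that restrains epithelial growth, was at 131 at 0 h and below the floor later.

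Cell junction genes were nearly level. Adherens junction genes had 2 of 16 members higher and 1 lower, with a median of -0.07, and tight junction genes 4 of 21 higher and 2 lower, with a median of -0.11. The place of both medians against that of all genes turned after quantile normalization, and for adherens genes also with the values as deposited. Tjp1, a scaffold of tight junctions, had 122, 827 and 535, and Cldn4, a claudin, 206, below the floor and 82.6. The whole list of 30 surface epithelium markers on the array had summed signals of 1731, 3240 and 2686, with 8 of 25 higher and 2 lower. The keratin, desmosome, cornified envelope and surface epithelium lists thus leaned higher, while the junction lists were nearly level. For the surface epithelium list this turned when sets with cross-hybridization suffixes were left out. The share of epithelial cells in each sample was not measured.

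Several concordant higher genes belonged to none of the lists described above. Scamp1, a membrane protein of secretory vesicles, had 210, 1846 and 1773, with ratios of 3.07 and 2.73. Cpe, which trims peptide hormones, had 126, 1267 and 1549, with ratios of 3.62 and 2.12, and its other set peaked at 12 h at 2292. Birc2, an inhibitor of apoptosis that acts in NF-kappaB signalling, had 21.4, 153 and 95.9, with ratios of 2.16 and, against the floor, 2.50. Both Akirin genes, nuclear cofactors of inflammatory transcription, were concordant, Akirin1 at 24.95, 79.8 and 79.7 and Akirin2 at 394, 1395 and 879. Norad, a long noncoding RNA induced by DNA damage, had 363, 2513 and 1480. Of these 6 genes, only Cpe was highest at 24 h in its brighter set.

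**Figure D4:**
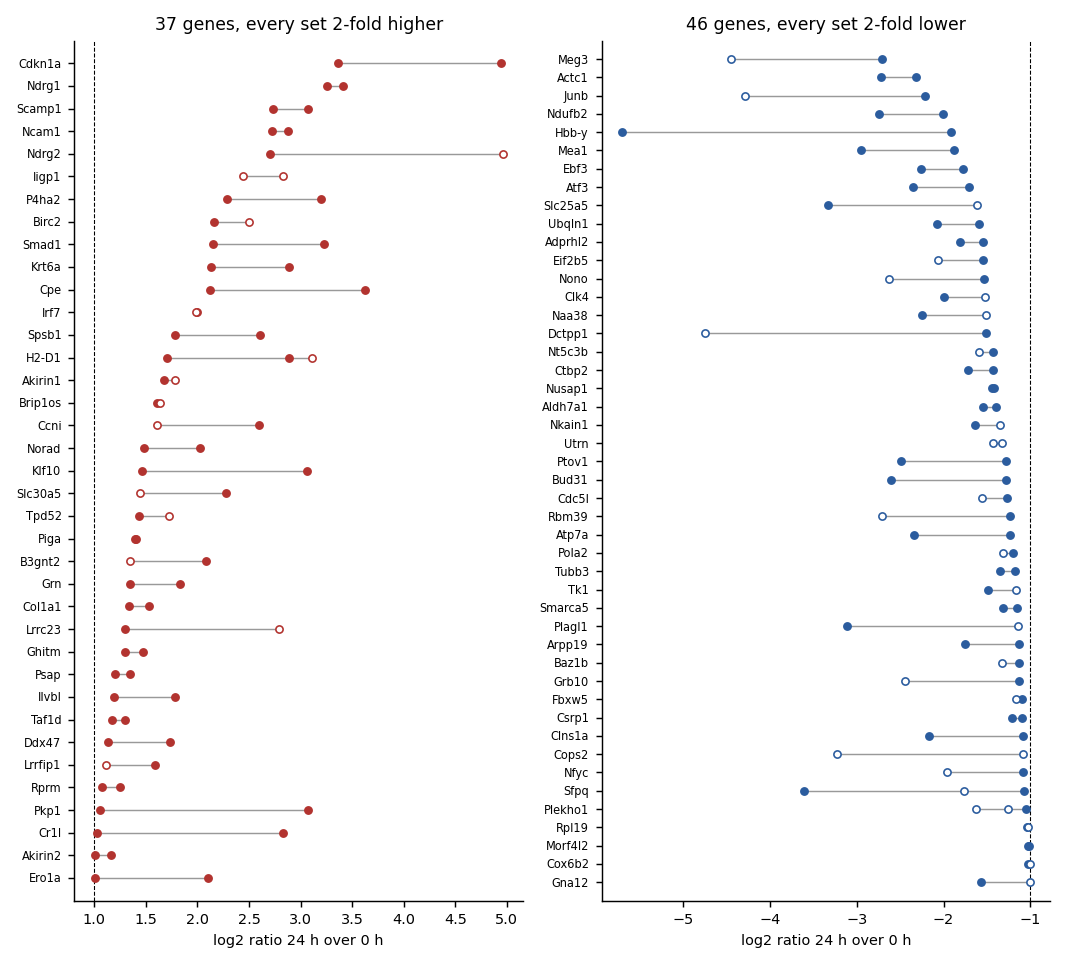
Log2 ratio of 24 h over 0 h for each probe set of the concordant genes, 1 row per gene and 1 point per probe set, with open circles where 1 array was at the floor. Cdkn1a (4.94 and 3.36) heads the higher genes, and Meg3 (-4.45 as a bound and -2.71) the lower genes.

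Among concordant genes with lower signal, Meg3 had the largest ratio that every set supported. Meg3, an imprinted long noncoding RNA that restrains growth, had 295 at 0 h and was below the floor later, at least 21.8-fold lower at 24 h, and its other set read 247, 19.96 and 37.7. Plagl1, an imprinted zinc finger factor that induces arrest, had 260, 78.3 and 30.1, with ratios of -3.11 and, against the floor, -1.14. Grb10, an imprinted inhibitor of insulin receptor signalling, had 70.5, 19.4 and 32.3, with ratios of -1.13 and, against the floor, -2.45. Only Plagl1 of the 3 was lowest at 24 h. The 3 are named together because they are imprinted, and several concordant genes ranked above Plagl1 and Grb10 are not named. On a list of imprinted genes put together after the values were seen, 5 of 25 were lower and 3 higher. That is near the 18% and 14.3% of all genes.

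Immediate early genes were mixed, with 8 of 30 lower (26.7%, against 18% of all genes) and 5 higher (16.7%, against 14.3%). Their median was -0.30. Junb and Atf3, transcription factors of the AP-1 and stress response, were the 2 concordant lower members, at 243, 23.5 and 52.6, and 409, 128 and 125. Their log2 ratios were -2.21 and, against the floor, -4.29 for Junb and -1.71 and -2.35 for Atf3. Fosb, a partner of the Jun proteins, had 720, 107 and 99.9 from 1 set. Junb, Atf3 and Fosb were thus high in the sample without culture, while Klf10 of the same list, given above, was concordant and higher at 24 h. Nfkbia, the inhibitor of NF-kappaB, had 95.1, 451 and 596 in its brighter set and 182, 105 and 127 in the other.

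Genes of the respiratory chain and ATP synthase were lower more often than higher, with 24 of 63 at least 2-fold lower, 6 higher and a median of -0.40, from -1.34 to -0.23 over the scalings. Ndufb2, a subunit of complex I, was the concordant member of 9 with several sets, at 955, 645 and 238, with ratios of -2.01 and -2.74. Uqcrh, of complex III, had 972, 251 and 53.1, and Atp5l and Atp5e, of ATP synthase, 1526, 79.7 and 65.1, and 299, 18.9 and 15.9. Each of these 3 has 1 informative set. Slc25a5, the mitochondrial carrier that exchanges ADP for ATP, was concordant at 295, 24.1 and 29.3, with ratios of -3.33 and, against the floor, -1.62. Ribosomal protein genes had 7 of 28 lower (25%, against 18% of all genes) and 1 higher. Their median was -0.22, against -0.08 over all genes, and Rps18 was at 4553, 5684 and 799.

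Splicing factors had 17 of 47 members lower and 3 higher, with a median of -0.47 (-1.48 to -0.31 over the scalings). Of 15 with several sets, 3 were concordant. Sfpq and Nono, RNA-binding partners that form paraspeckles, had 209, 11.3 and 17.2, and 585, 487 and 201. Sfpq was lower in all 3 of its sets, with log2 ratios of -3.60, -1.07 and, against the floor, -1.76, but the 2 dimmer sets were highest at 12 h (92.4 and 82.4). Rbm39, a splicing coactivator, had 205, 134 and 87.3, with ratios of -1.23 and, against the floor, -2.71. Chromatin genes had 15 of 58 lower (25.9%, against 18% of all genes) and 5 higher, with a median of -0.35. The constitutive proteasome had 9 of 34 lower (26.5%) and 3 higher. Of its 4 members with several sets 3 were opposed, Psmb1 among them with ratios of 1.85 and -1.55.

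Transcripts of other tissues were among the lower genes. Of 19 erythroid markers with a ratio 6 were lower and none higher, and the summed signal of the 21 on the array was 8468, 2184 and 2599. Hbb-y, an embryonic beta globin, was concordant at 3158, 1290 and 839, with ratios of -1.91 and -5.71, and Hba-x, an embryonic alpha globin, had 753, 29.3 and 18.4. The globin genes are near copies of each other and their sets may share signal. The erythroid regulators Gata1, Klf1 and Alas2 were above the floor and within 2-fold. Neural and glial markers had 8 of 25 lower and 3 higher, a median of -0.46 and summed signals of 2110, 3007 and 2234, and relative to all genes their order turned with the values as deposited. Tubb3, a tubulin of neurons, was concordant at 459, 74.8 and 203, with ratios of -1.18 and -1.35, Uchl1, a ubiquitin hydrolase of neurons, had 155 at 0 h and was below the floor later, and Fabp7, a fatty acid binding protein of glia, had 273, 62.4 and below the floor. Actc1, cardiac actin, was concordant at 280, 88.6 and 56.4, with ratios of -2.31 and -2.72. Over the muscle markers 5 of 26 were higher (19.2%) and 4 lower (15.4%), against 14.3% and 18% of all genes. In the same neural list Ncam1 was concordant and higher, and the defining markers Sox10, Gfap and Nefl were within 2-fold. The unfused sample thus had more signal from globin transcripts and from some of the neuronal ones, and the part of such cells in other ratios was not tested.

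Endothelial and skeletal genes completed the check of other cell types. Endothelial markers had 4 of 21 higher (19%, against 14.3% of all genes) and 2 lower (9.52%, against 18%). Tek was below the floor at 0 and 24 h, and Cdh5, the vascular cadherin, was at 51.7, 263 and 160. The summed signals of the 28 endothelial markers on the array were 916, 1076 and 1211. Bone and cartilage genes had 5 of 17 higher and none lower, with a median of 0.61 (-0.31 as deposited) and summed signals of 1253, 2391 and 2917 over 24 genes. Ibsp, a bone sialoprotein, was below the floor at 0 h and at 681 and 264 later, but its other set was at 26.6 and 27.5 at 0 and 24 h, a ratio of 0.05.

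Of the 22 genes with a ratio on a list compiled for cleft palate, 3 were higher (13.6%) and 6 lower (27.3%), against 14.3% and 18% of all genes. Ahr, the aryl hydrocarbon receptor, was among the lower, at 49.5, 209 and 14.4. Besides Tgfb3 and the factors given above, Fst, an activin antagonist, had 58.8, 28.4 and 27.5, and Hic1, a zinc finger repressor, 66.5, 24.2 and 27.4 with -0.06 in its other set. Shh, the ligand that signals from palate epithelium to mesenchyme, was 1.97-fold higher at 17.4, 16.3 and 34.3, just short of the rule. Ctnnb1, beta-catenin, was at 1440, 3480 and 1347, and Efnb1, an ephrin, at 81.3, 19.1 and 81.5. Both were thus level between 0 and 24 h and apart at 12 h.

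**Figure D5:**
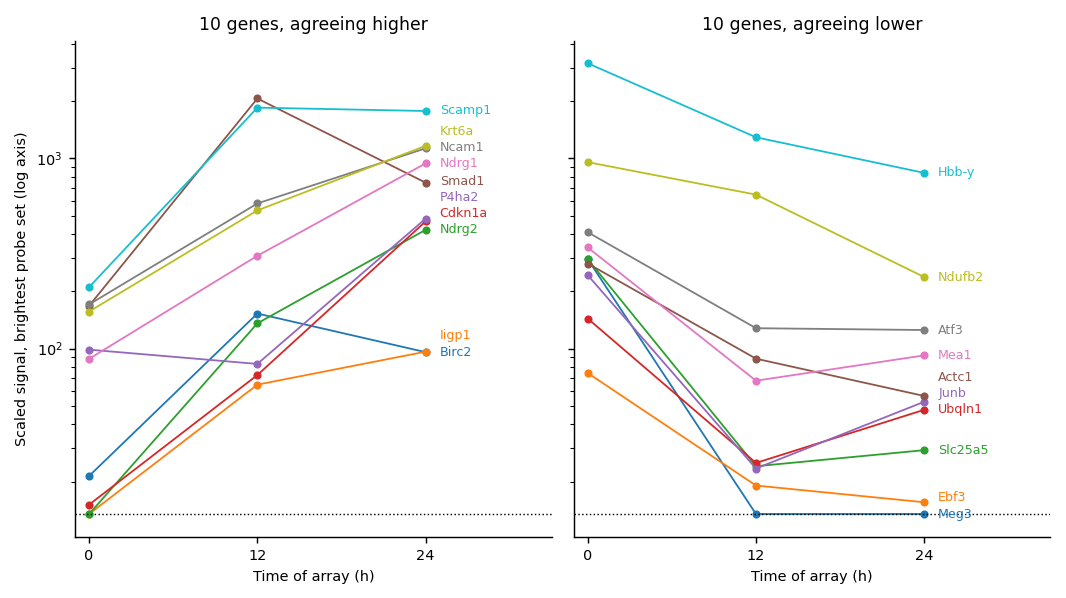
Scaled signal (log axis, arbitrary units) on the 0, 12 and 24 h arrays for the 10 leading concordant genes each way, higher and lower, 1 line per gene for its brightest probe set and a dotted line at the floor. Lines join single arrays, and Cdkn1a is highest at 24 h (466) while Smad1 is highest at 12 h (2063) and Junb lowest at 12 h (23.5).

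Several of the largest ratios came from genes with 1 informative set. Of those named here Yy1 has another set, which lay below the floor on all 3 arrays, and the others have 1 set in all. Higher among these were Osbpl5, an oxysterol-binding protein relative, with 112, 1192 and 2003, Yy1, a zinc finger transcription factor, with 38.3, 212 and 597, Hspa9, a mitochondrial chaperone, with 255, 1881 and 3152, and P2rx4, an ATP-gated channel, below the floor at 0 h and at 321 at 24 h. Lower among them were Prmt1, an arginine methyltransferase, with 421, 24.3 and 21.96, and Sec61b, a subunit of the protein channel of the endoplasmic reticulum, with 476, 8.62 and 33.1. Nnat, an imprinted membrane protein, had 318, below the floor and 22.6. Among genes whose sets opposed each other, Peg3 had log2 ratios of 1.89, 1.42 and -3.54, Fbxw11 2.78 and -2.55, Mtm1 -3.35 and 1.68, and Tug1 -2.74 and 1.82. For these the direction depended on which probe set was read.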

How the data were processed

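The study measured RNA of palate medial edge epithelium on 3 Affymetrix arrays of 1 colour, 1 per time point, after amplification with the RiboAmp kit and biotin labelling, per the labels' protocols. The deposited values are intensities on a linear scale, 1 for each probe set. The submitters' processing notes name Microarray Suite 5.0 and GeneSpring 6.0 without saying which wrote them, with any scaling by the authors not given in the sources used here. Of 12488 probe sets, 66 are controls and 10833 name 1 gene, with symbols taken from a RefSeq table (GRCm38.p6). Trimmed means of 2% were 93.7, 58.1 and 46.8 at 0, 12 and 24 h, and arrays were scaled to their geometric mean, floored at the pooled 40th percentile and taken to log2. Scaled signals of 62.6%, 56.8% and 60.6% of probe sets exceeded the floor.

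No test was possible, genes were counted by a rule of at least 2-fold, and precision is limited by the number of arrays. Named genes were drawn from concordant genes ranked by their smallest ratio and from up to 5 members of a described list. Others came from the largest single-set ratios and bounds, opposed genes and cleft palate genes. Rankings are not given in full, and related genes, such as the Akirin and imprinted ones, were named ahead of better-ranked genes. The members and lists were chosen with earlier results of these data known. Promoters and their motifs came from the RefSeq promoter table. Alternatives were 3 other scalings, scaling from 2 arrays, floors at the 20th and 60th percentile, probe sets averaged, sets with cross-hybridization suffixes left out and a 3-fold rule. Scripts were tested on simulated data and ran in Python 3.11.15 with numpy 2.4.6, pandas 2.3.3 and matplotlib 3.10.9.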

Additional observations from a re-analysis of the deposited data

How the results depend on the processing

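With 1 array a time point no ratio could be tested, and the depth of a value is only its height over the floor. No paired analysis was possible because each time point has a single array. With the values as deposited 293 genes were at least 2-fold higher and 3271 lower, and 10 were concordant higher and 292 lower. Of the 37 and 46 concordant genes 10 and 44 were shared with that setting, and after median centring, which gave 51 and 31 in all, 37 and 29. Quantile normalization gave 51 and 36. A 3-fold rule gave 421 and 509 genes, 17 and 10 concordant and 14 opposed. A floor at the 20th percentile gave 74 concordant each way and 143 opposed, and one at the 60th gave 727 lower genes, 26 concordant lower and 30 opposed. Without the cross-hybridization suffixes 12 genes were concordant higher, 21 lower and 19 opposed.

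Some list medians changed side of the median of all genes. With the values as deposited these were G1 cyclins (difference 0.0277), BMP (0.0822), Wnt (-0.0013), adherens junction (-0.0587), gap junction (0.18) and neural genes (0.24), and after quantile normalization Wnt (-0.0031), adherens junction (-0.0892) and tight junction (0.0237). At the 20th percentile they were insulin-like growth factor (0.16) and tight junction genes (0.0017), and at the 60th retinoid (0.0827), tight junction (0.33), gap junction (0.25) and muscle genes (-0.11). Without suffixed sets they were G1 cyclins (0.0208), cholesterol (0.11) and surface epithelium genes (-0.0427), and with averaged sets insulin-like growth factor (0.0908) and adherens junction genes (-0.29). Single genes changed sign with the values as deposited (Tapbp -0.54, Lamb1 -1.13), without suffixed sets (Lage3 -1.57, Mtm1 1.68, Psmb5 0.64, Numb -0.25) and with averaged sets (Peg3 -0.0773, Lage3 -0.28). The cause was not tested.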

Other observations

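A list of 27 imprinted genes on the array, put together after the values were seen, had 25 with a ratio, 3 at least 2-fold higher and 5 lower at 24 h, against 14.3% and 18% of all genes. Apart from Meg3, Plagl1, Grb10 and Nnat, the lower genes held Ascl2, a transcription factor of the placenta, at 33.1, 18.2 and 10.7 at 0, 12 and 24 h. The higher genes were Igf2, a fetal growth factor, at 3087, 1684 and 6698, Cdkn1c, the p57 inhibitor of cyclin-dependent kinases, at 1172, 2662 and 3679, and Peg3, whose probe sets opposed each other. Dlk1, a membrane ligand next to Meg3 in the genome, was at 600.1, 119.6 and 629.3. Xist, the RNA of the inactive X chromosome, was at 226 at 0 h and below the floor at 12 and 24 h. The Y-linked gene Eif2s3y was at 15.6, 147 and 18.8, and Uty, also Y-linked, was above the floor at 12 h alone, at 24.8. The sex of the embryos was not given in the sources used here.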
